A study of Mus musculus with 9 samples.

Results

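Sphingosine 1-phosphate (S1P) is a signalling lipid, and the genes described here are those for 4 of its receptors (S1pr1, S1pr2, S1pr3 and S1pr4), the 2 kinases that make it (Sphk1 and Sphk2) and the lyase that destroys it (Sgpl1). They are 7 of the 24532 genes in the deposited table and were chosen by symbol, with results of these data already known, so their own levels are given as a description without a test. The samples were neutrophils, short-lived granulocytes of innate immunity, sorted by flow cytometry from the lung, blood and bone marrow of wild type C57BL/6 mice. Each tissue had 3 biological replicates, no group was treated, and polyadenylated RNA was sequenced. The sources used here give no age, no number or pooling of animals and no antibodies or gates of the sort, so the replicates' spread is that between these samples.

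S1P is made inside cells when a sphingosine kinase phosphorylates sphingosine, and it is removed either by phosphatases, which return it to sphingosine, or irreversibly by the lyase. It is abundant in blood and lymph and scarce inside most tissues, and cells sense it through a family of G protein-coupled receptors. S1pr1 couples to Gi proteins and guides lymphocytes out of lymphoid organs. S1pr2 restrains migration in several cell types, and S1pr4 is found mainly in blood cells. Mice that lack the lyase have raised neutrophil counts in blood.

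Library totals lay between 42045548 and 56796219 counts, and 11642 to 14584 genes had at least 10 reads. Levels within a gene are given in CPM, the read count relative to the size of its library, with libraries put on 1 scale by trimmed mean (TMM), and levels between genes in FPKM, which also divides by transcript length. Fold changes are on the log2 scale from an edgeR fit over all 13510 genes kept, as first tissue over second, with the standard error (SE). All 8 neutrophil markers examined, among them S100a8, Csf3r and Cxcr2, were detected in every library. Their summed level was 19560 to 35730 CPM in lung, 27060 to 38320 CPM in blood and 77900 to 113700 CPM in bone marrow. S100a9, S100a8 and Retnlg made up most of the bone marrow sum, and not every marker followed it: Csf3r had 5210, 7223 and 10840 CPM in lung, 11620, 11330 and 15900 CPM in blood and 4394, 4599 and 5388 CPM in bone marrow. Markers of other cells were present too. B cell markers summed to 404, 347 and 37.9 CPM in lung replicates 1, 2 and 3, to 341, 324 and 55.2 CPM in blood and to 96.4, 54.8 and 24.6 CPM in bone marrow, and fibroblast markers to 1499, 1281 and 89.9 CPM in lung. Lung replicate 3 therefore stood apart from the other 2 lung libraries in both lists.

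The receptors changed places between tissues. S1pr2 was the receptor with the highest level in lung by FPKM, although S1pr1 was ahead of it in 2 of the 3 lung libraries by TPM, and S1pr4 held that place in blood and bone marrow. S1pr1 overlapped across all 3 tissues. S1pr3 had at most 157 and Sphk1 at most 52 reads in any library. Sphk2 was lower in lung and blood than in bone marrow, and Sgpl1 was highest in lung replicate 3. In bulk RNA of this kind, fewer cells of a type and less RNA per cell cannot be told apart.

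By CPM, the libraries of lung and blood did not overlap for 5 of the 7 genes, 4 higher and 1 lower in lung, where 41.6% of all genes tested did not overlap, 17.6% higher and 24.0% lower. Between lung and bone marrow they did not overlap for 5, 3 higher and 2 lower in lung, against 49.0% of all genes, 20.1% higher and 28.9% lower. Between blood and bone marrow 4 did not overlap, all lower in blood, against 45.4% of all genes, 19.8% higher and 25.6% lower. By FPKM, S1pr3 and Sphk1 overlapped between lung and bone marrow, and Sgpl1 between blood and bone marrow. Sphk2 in lung and blood, Sgpl1 in lung and bone marrow and S1pr2 in blood and bone marrow overlapped by CPM but not by FPKM. The counts come from the values that the genes were chosen with, and nothing is read from them.

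**Figure D1:**
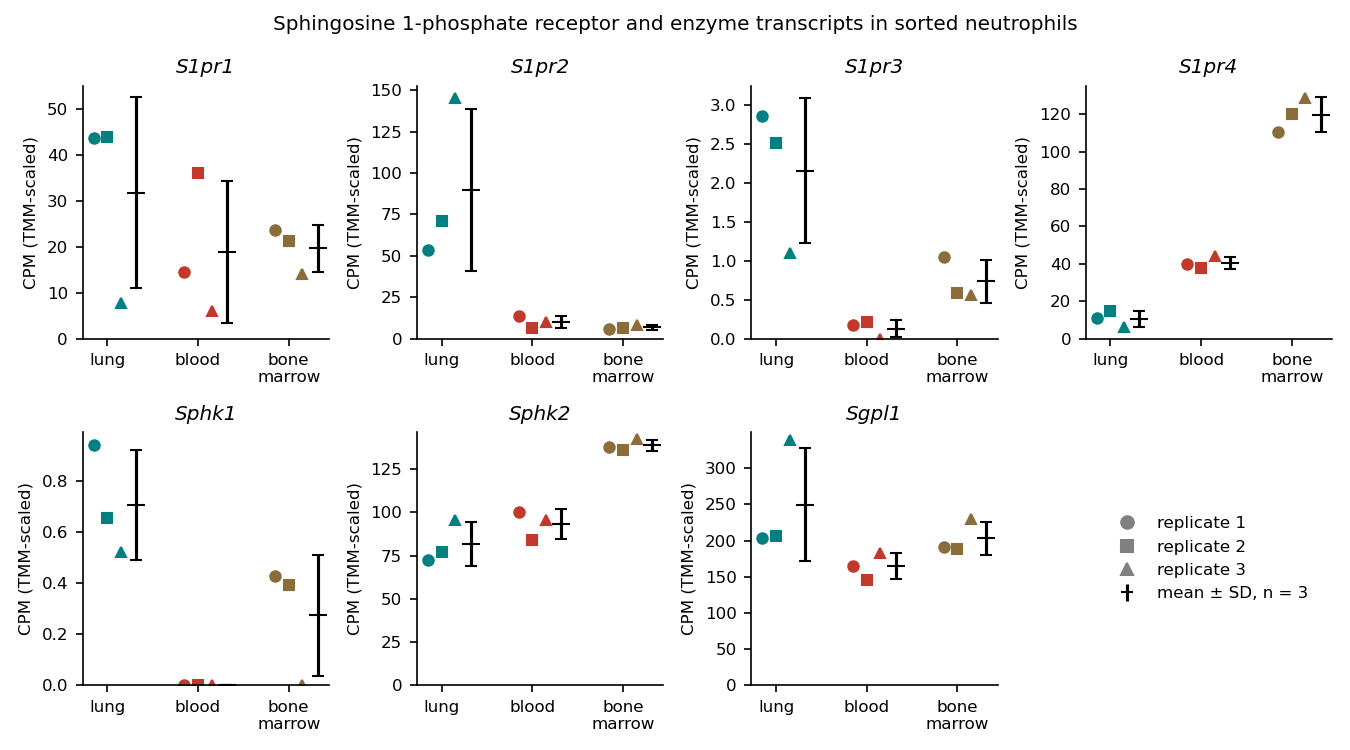
Level of each of the 7 genes in TMM-scaled CPM (vertical axis, linear, a different range in each panel) in neutrophils of lung, blood and bone marrow; points are replicates 1 to 3 and the black mark is the mean ± SD of 3 libraries. S1pr2 sits at 53.3 to 146 CPM in lung and below 14 CPM elsewhere, S1pr4 steps up over the 3 tissues to 110 CPM or more in bone marrow, and the S1pr1 points of the 3 tissues overlap.

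S1pr2 (Entrez 14739; mm10 chr9:20965952-20976793, minus strand) had 53.3, 70.8 and 146 CPM in lung replicates 1, 2 and 3. Blood had 13.7, 6.10 and 9.81 CPM and bone marrow 5.65, 6.08 and 8.44 CPM. Every lung library was above every blood and bone marrow library, while blood and bone marrow overlapped. The means were 89.9 ± 49.0 CPM in lung, 9.88 ± 3.82 CPM in blood and 6.72 ± 1.50 CPM in bone marrow (SD, n = 3 each). The log2 fold change was 3.19 (SE 0.43) for lung over blood, 3.74 (SE 0.44) for lung over bone marrow and 0.56 (SE 0.40) for blood over bone marrow. The library with the most S1pr2, lung replicate 3, was the one with the lowest summed B cell, T and NK cell, macrophage, endothelium, epithelium and fibroblast markers of the 3 lung libraries, but the one with the highest summed neutrophil and monocyte markers. The 8 neutrophil markers summed to 19560, 21400 and 35730 CPM in lung, and each was highest in replicate 3 of the lung libraries. Across tissues their sum was instead highest in bone marrow. The 6 monocyte markers, none at 0, summed to 361, 427 and 539 CPM in lung, 668, 665 and 680 CPM in blood and 801, 967 and 1202 CPM in bone marrow, so S1pr2 followed their sum within lung and not across tissues. Csf1r made up most of the lung sum, with 242, 307 and 475 CPM, and Ly6c2 rose with it. Ccr2, Cx3cr1, Ace and Ear2 were instead each lowest in lung replicate 3 of the lung libraries. The 6 macrophage markers summed to 219, 258 and 176 CPM in lung, 105, 95.6 and 114 CPM in blood and 48.5, 53.4 and 66.4 CPM in bone marrow, with Marco at 0 in bone marrow replicate 1, so like S1pr2 their sum was highest in lung. Adgre1 made up most of the blood and bone marrow sums, and had 54.6, 78.6 and 126 CPM in lung and 100, 91.5 and 112 CPM in blood. Marco, Mrc1, C1qa, C1qb and C1qc were instead each lowest in replicate 3 of the lung libraries. The part of these cells in the S1pr2 values was not tested. Without lung replicate 3 the log2 fold change was 2.62 over blood and 3.17 over bone marrow. The RSEM expected counts deposited for lung and blood gave 16.7, 23.9 and 34.6 TPM in lung and 6.53, 2.85 and 3.70 TPM in blood, which did not overlap either.

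S1pr4 (Entrez 13611; mm10 chr10:81497745-81500137, minus strand) ran the other way. It had 11.2, 14.7 and 6.08 CPM in lung, 39.9, 37.7 and 44.0 CPM in blood and 110, 120 and 129 CPM in bone marrow. No library of one tissue reached the range of another. The means were 10.7 ± 4.32 CPM in lung, 40.5 ± 3.19 CPM in blood and 120 ± 9.28 CPM in bone marrow (SD, n = 3 each). Lung was 3.80-fold below blood and 11.2-fold below bone marrow by these means, and blood was 2.95-fold below bone marrow. On the log2 scale the differences were -1.93 (SE 0.27), -3.49 (SE 0.29) and -1.56 (SE 0.27). The lung library with the least S1pr4 was replicate 3, the one with the most S1pr2, and without it lung stood at -1.68 against blood and -3.25 against bone marrow.

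The upstream sequences of these receptors are shown because the genes moved in opposite directions over the same libraries. Both are read 5′ to 3′ on the gene's strand from RefSeq (GRCm38.p6) and end at the base before the annotated start. S1pr2 has chr9:20976794-20977043 and S1pr4 has chr10:81500138-81500387. Capitals mark matches to the motifs searched, on either strand.
S1pr2: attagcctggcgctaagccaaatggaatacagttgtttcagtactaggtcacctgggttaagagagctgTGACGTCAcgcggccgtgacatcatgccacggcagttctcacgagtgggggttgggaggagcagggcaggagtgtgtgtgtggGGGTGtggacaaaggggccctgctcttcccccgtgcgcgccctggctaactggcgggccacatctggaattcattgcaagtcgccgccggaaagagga
S1pr4: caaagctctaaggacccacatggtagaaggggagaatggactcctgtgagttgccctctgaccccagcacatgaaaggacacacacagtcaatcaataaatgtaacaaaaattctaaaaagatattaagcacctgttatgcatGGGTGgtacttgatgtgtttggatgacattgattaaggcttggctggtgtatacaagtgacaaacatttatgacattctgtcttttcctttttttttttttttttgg
The windows differ in base composition. That of S1pr2 is 59.2% G and C with 14 CG dinucleotides, and that of S1pr4 is 38.8% with 0, against medians of 52.4% and 6 over 32817 windows of 250 bases. The S1pr2 window holds 1 cyclic AMP response element, TGACGTCA, at position -181 from the start, a motif found in 1.55% of all windows. Each holds 1 KLF-type match, CACCC on the other strand (GGGTG as printed), at -98 in S1pr2 and -107 in S1pr4, as do 52.0% of windows. Neither holds a GC box (GGGCGG, 32.7% of windows), the letters GAGGAA searched as an ETS-type site (23.3%), an AP-1 site (TGANTCA, 6.75%) or an NF-kB site (GGG and CC with 5 bases of any kind between them, 45.8%) in the letters searched. Other ETS-type letters, such as the shorter GGAA, were not searched. A match describes the letters only and is no evidence of binding.

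S1pr1 (Entrez 13609; mm10 chr3:115710433-115715055, minus strand) had 43.6, 43.8 and 7.72 CPM in lung, 14.5, 36.0 and 5.89 CPM in blood and 23.7, 21.1 and 14.0 CPM in bone marrow. The tissues overlapped in every pairing, and the spread within lung and within blood was as wide as any distance between tissues. The means were 31.7 ± 20.8, 18.8 ± 15.5 and 19.6 ± 5.06 CPM in lung, blood and bone marrow (SD, n = 3 each). The log2 fold change was 0.75 (SE 0.72) for lung over blood, 0.69 (SE 0.72) for lung over bone marrow and -0.06 (SE 0.72) for blood over bone marrow. Without lung replicate 3 the first was 1.18 and the second 1.12. The third value had no stable sign: it was 0.15 and 0.41 when blood replicate 1 or 3 was left out, 0.08 when bone marrow replicate 1 was, and 0.11 with libraries scaled by their upper quartile.

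Markers of lymphocytes moved with S1pr1 only in part. The 7 T and NK cell markers summed to 79.1, 87.7 and 14.2 CPM in lung, to 22.1, 84.2 and 16.2 CPM in blood and to 78.3, 78.2 and 29.9 CPM in bone marrow, with none at 0 in any library. In every tissue replicate 3 had the lowest S1pr1 and the lowest summed T and NK cell markers, and in blood replicate 2 had the highest of both. Between tissues, bone marrow replicates 1 and 2 had T and NK cell sums close to that of lung replicate 1. Their S1pr1 was lower, at 23.7 and 21.1 CPM beside 43.6 and 43.8 CPM in lung replicates 1 and 2. Cd3e, a subunit of the T cell receptor complex, had 8.12, 9.19 and 0.571 CPM in lung, 1.61, 9.30 and 1.45 CPM in blood and 6.63, 7.51 and 2.15 CPM in bone marrow. Not every marker of that list was lowest in replicate 3. In blood, replicate 1 was lowest for Cd3d (3.95, 9.51 and 4.82 CPM), Cd3g (2.05, 9.91 and 2.15 CPM) and Il7r (2.90, 21.9 and 3.62 CPM). In bone marrow, replicate 1 was lowest for Cd3d (14.1, 17.8 and 16.3 CPM). The summed B cell markers were also lowest in replicate 3 of every tissue, although Fcer2a in bone marrow was lowest in replicate 2, at 1.55 CPM beside 2.02 CPM in replicate 3. In blood the B cell sum was highest in replicate 1, at 341 CPM beside 324 CPM in replicate 2, where S1pr1 was highest. The 8 endothelium markers summed to 102, 72.8 and 27.9 CPM in lung, 29.7, 42.0 and 23.2 CPM in blood and 20.0 to 21.3 CPM in bone marrow, with Tek, Cldn5, Kdr and Emcn at 0 in all blood libraries. Pecam1 made up most of the blood and bone marrow sums, with 25, 32 and 15 CPM in blood and 18, 19 and 16 CPM in bone marrow. Vwf made up nearly all the rest in blood. The part of these cells in the S1pr1 values was not tested.

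**Figure D2:**
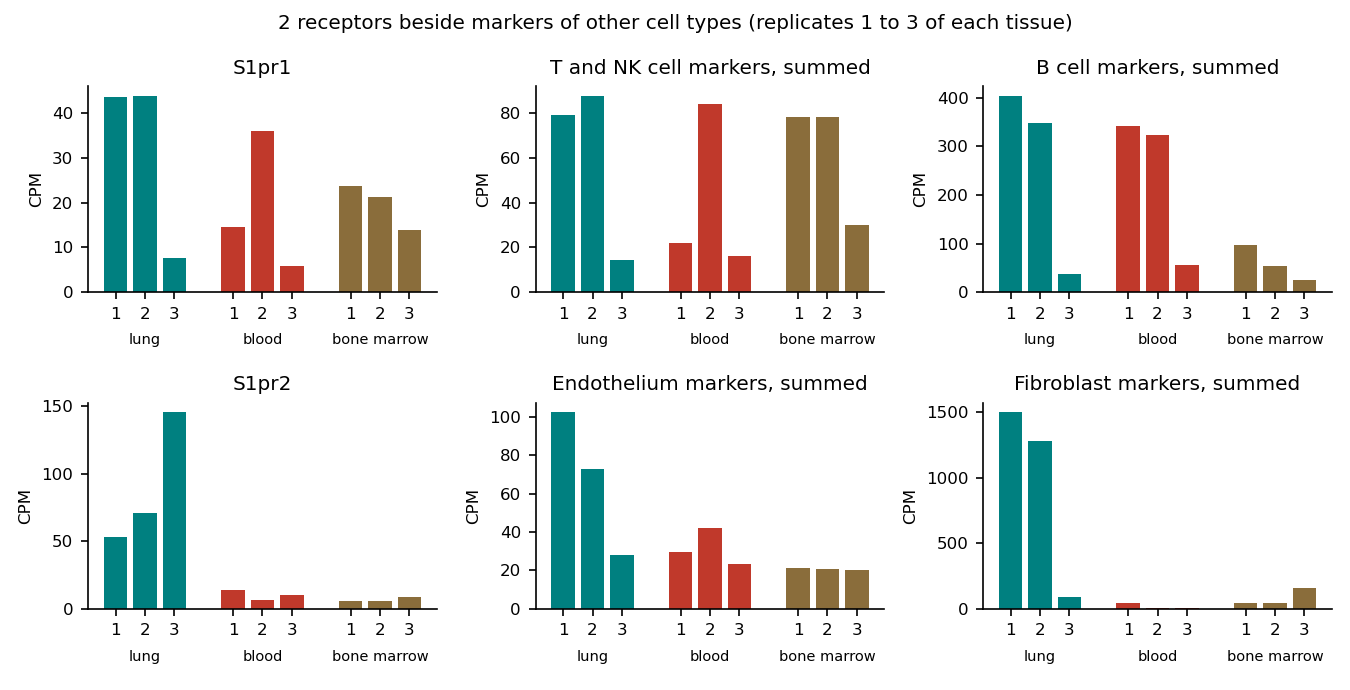
S1pr1 and S1pr2 beside the summed markers of 4 other cell types, in TMM-scaled CPM per library (bars from 0, replicates 1 to 3 of lung, blood and bone marrow from left to right). S1pr1 is low in the libraries where T and NK cell markers are low, such as lung replicate 3 at 7.72 CPM, whereas S1pr2 is highest in that library at 146 CPM.

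S1pr3 (Entrez 13610; mm10 chr13:51408618-51422797, plus strand), a receptor prominent in vessel walls and heart, was low everywhere. It had 157, 126 and 44 reads in lung, 8, 12 and 0 reads in blood and 44, 30 and 22 reads in bone marrow, or 2.85, 2.51 and 1.09 CPM, 0.174, 0.209 and 0 CPM, and 1.05, 0.588 and 0.563 CPM. By CPM the tissues did not overlap, although lung replicate 3 and bone marrow replicate 1 had the same 44 reads. By FPKM that lung library, at 0.185, lay below that bone marrow library, at 0.211, so lung and bone marrow overlapped. The log2 fold change was 4.03 (SE 1.00) for lung over blood, 1.55 (SE 0.89) for lung over bone marrow and -2.48 (SE 0.95) for blood over bone marrow. Without blood replicate 3, the library with 0 reads, the first of these was 3.45, and without lung replicate 3 it was 4.31 and the second 1.83. Within lung, S1pr3, the endothelium sum and the fibroblast sum all had replicate 3 lowest, and the part of those cells was not tested. An annotated long noncoding gene on the other strand, Gm32834, overlaps S1pr3, and reads of the pair could not be told apart if counting ignored strand, on which the sources used here are silent.

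Set per length within a library, S1pr2 made up 49.0%, 54.3% and 90.7% of the summed FPKM of the 4 receptors in lung, 18.5%, 7.24% and 14.6% in blood and 3.56%, 3.63% and 4.87% in bone marrow. S1pr4 made up 12.1%, 13.2% and 4.44% in lung, 63.2%, 52.8% and 77.2% in blood and 82.1%, 84.4% and 87.5% in bone marrow. The order of these receptors was thus opposite in lung to that in the other tissues, in all 9 libraries. The ratio of S1pr2 to S1pr4 in FPKM was 4.04, 4.10 and 20.4 in lung, 0.293, 0.137 and 0.189 in blood and 0.0434, 0.0430 and 0.0557 in bone marrow. S1pr1 took 37.3%, 31.2% and 4.46% in lung, 18.2%, 39.8% and 8.16% in blood and 13.9%, 11.8% and 7.48% in bone marrow. The sum of the 4 receptors was 44.4, 51.1 and 43.5 FPKM in lung, 27.6, 36.1 and 24.1 FPKM in blood and 51.0, 52.0 and 46.5 FPKM in bone marrow, so the sums of lung and bone marrow overlapped while their make-up differed, and the blood sums lay below both.

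Which receptor led in lung depended on the table. In the RSEM TPM, S1pr1 held 48.1%, 40.9% and 7.32% of the receptor sum in lung and S1pr2 held 32.9%, 38.9% and 82.8%, so that S1pr1 was ahead in lung replicates 1 and 2. The ratio of S1pr2 to S1pr4 in lung was 1.95, 2.09 and 8.99 by TPM, still above 1 in every lung library, and 0.205, 0.0777 and 0.0987 in blood. The receptor sum was 50.8, 61.4 and 41.8 TPM in lung and 46.4, 62.6 and 44.5 TPM in blood, so the lower sum of blood by FPKM was not seen by TPM.

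**Figure D3:**
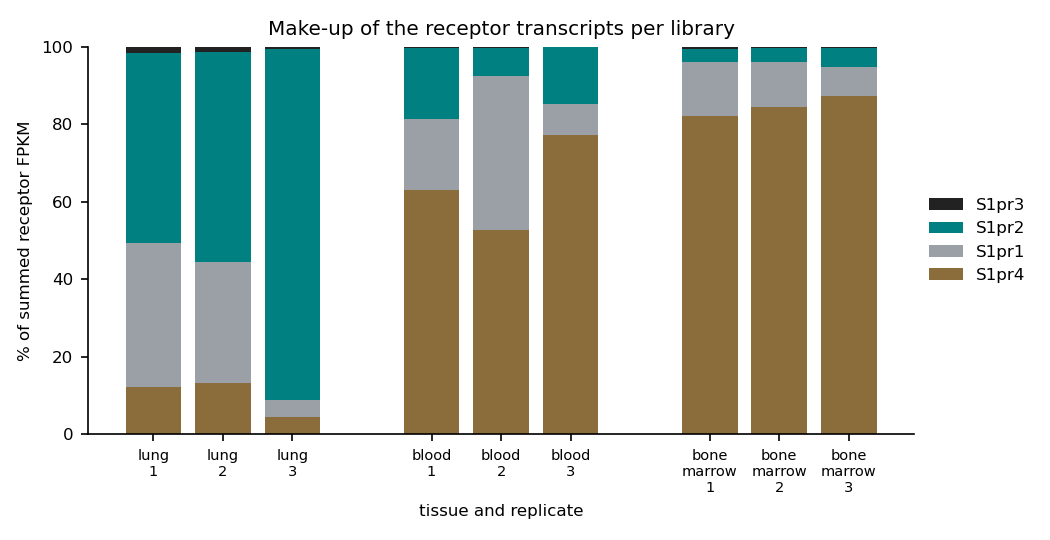
Share of each receptor in the summed FPKM of S1pr1 to S1pr4, in percent (stacked bars from 0 to 100), for each of the 9 libraries. S1pr4 is the main part of the bar in blood and bone marrow and S1pr2 in lung, where replicate 3 reaches 90.7% S1pr2; by TPM, which is not drawn, S1pr1 is ahead in lung replicates 1 and 2.

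The fifth receptor, S1pr5, is best known from natural killer cells and was examined as one of the other genes of the pathway. It had 2.07, 2.65 and 0.447 CPM in lung, 7.26, 4.33 and 1.45 CPM in blood and 0.119, 0.196 and 0.205 CPM in bone marrow. It was higher than in bone marrow both in lung (log2 fold change 3.30, SE 0.81, edgeR adjusted p = 0.0123) and in blood (4.63, SE 0.85, adjusted p = 0.00561). With limma-voom neither passed, at adjusted p = 0.173 and 0.0755, and with limma on FPKM the first did not, at 0.0535. Ncr1, a marker of natural killer cells, had 3.51, 5.82 and 0.273 CPM in lung, 2.33, 2.76 and 0.385 CPM in blood and 1.93, 2.76 and 0.256 CPM in bone marrow. Of the monocyte markers, Ace had 45, 39 and 8.4 CPM in lung, 84, 59 and 13 CPM in blood and 1.2, 0.80 and 3.2 CPM in bone marrow. Cx3cr1 had 6.5, 5.5 and 2.6 CPM, 16, 19 and 4.4 CPM, and 1.9, 0.84 and 0.31 CPM. Csf1r and Ccr2 overlapped between lung and bone marrow. Ly6c2 was instead highest in bone marrow, and Ear2 in lung replicates 1 and 2. The part of natural killer cells and of monocytes in the S1pr5 values was not tested. S1pr5 overlaps Gm48303 on the other strand.

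Sphk1 (Entrez 20698; mm10 chr11:116531911-116536675, plus strand), a cytosolic kinase that moves to the plasma membrane on stimulation, was barely detected. It had 52, 33 and 21 reads in lung, 0 in each blood library and 18, 20 and 0 reads in bone marrow. Its share of the summed FPKM of the kinases was 2.58%, 1.54% and 0.993% in lung, 0% in blood and 0.600%, 0.550% and 0% in bone marrow. A count of 0 allows up to 3 reads, which is 0.0654, 0.0521 and 0.0680 CPM in blood replicates 1, 2 and 3 and covers counting error only. The RSEM table listed 5 expected counts in blood replicate 1, where the series table has 0, so no fold change against blood is given. Gm29292, annotated antisense to Sphk1, shares its locus.

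Sphk2 (Entrez 56632; mm10 chr7:45709463-45718002, minus strand), the kinase also found in the nucleus, carried nearly all kinase transcripts. It had 72.3, 76.9 and 95.8 CPM in lung, 100.4, 84.0 and 95.7 CPM in blood and 138, 136 and 143 CPM in bone marrow. Bone marrow stood above both other tissues, which overlapped with each other. The means were 81.7 ± 12.5 CPM in lung, 93.3 ± 8.48 CPM in blood and 139 ± 3.36 CPM in bone marrow (SD, n = 3 each). The log2 fold change was -0.19 (SE 0.14) for lung over blood, -0.77 (SE 0.14) for lung over bone marrow and -0.57 (SE 0.14) for blood over bone marrow. Upper-quartile scaling moved the median of all genes in lung over bone marrow by 0.32 and the Sphk2 value to -0.46, which is -0.84 relative to that median. Without lung replicate 3 the values of lung were -0.36 over blood and -0.93 over bone marrow. In FPKM, which is not TMM-scaled, blood and bone marrow differed by -0.20 on the log2 scale, where the median of all genes moved by 0.30, so that Sphk2 was at -0.45 relative to that median, beside -0.53 in the edgeR fit.

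The 3 listed Sphk2 transcripts have 2 starts that lie 2795 bases apart, and they did not move together. The transcript from the proximal start had 2.06, 4.50 and 1.89 FPKM in lung, 9.04, 9.45 and 10.6 FPKM in blood and 14.1, 13.8 and 17.8 FPKM in bone marrow, without overlap between tissues. The pair from the distal start summed to 21.3, 19.2 and 18.7 FPKM in lung, 20.0, 18.5 and 16.0 FPKM in blood and 20.3, 18.9 and 11.4 FPKM in bone marrow, and here all tissues overlapped. The proximal start therefore made up 8.80%, 19.0% and 9.16% of Sphk2 FPKM in lung, 31.2%, 33.8% and 40.0% in blood and 41.0%, 42.2% and 61.0% in bone marrow. This split was chosen after its values were seen and has no test. The sources used here do not say how reads shared by the transcripts were divided. On the other strand, Rpl18, a ribosomal protein gene, begins 69 bases beyond the distal start in the series table and shares no base with Sphk2 there, but a longer GENCODE transcript of it shares 373 bases with the distal Sphk2 exons. Rpl18 had 277, 194 and 207 CPM in lung, 143, 160 and 131 CPM in blood and 137, 137 and 142 CPM in bone marrow. Dbp shares 539 exonic bases with the far end of Sphk2, common to all its transcripts, and had 2.56 to 5.04 CPM. The part of reads from these neighbours in the Sphk2 values was not tested.

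**Figure D4:**
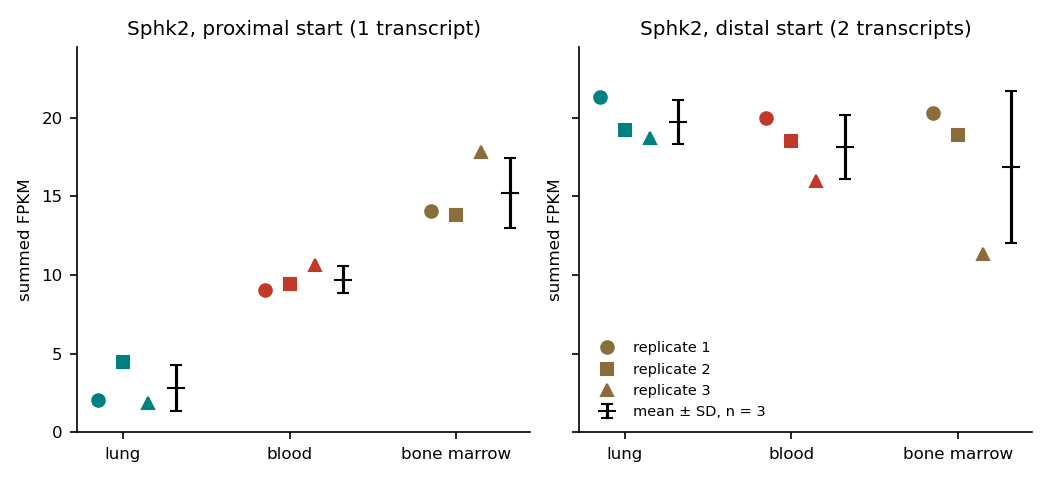
Sphk2 transcripts by start, as summed FPKM (vertical axis from 0) in neutrophils of lung, blood and bone marrow; points are replicates and black marks the mean ± SD of 3 libraries. The proximal-start transcript lies at 1.89 to 4.50 FPKM in lung and at 13.8 to 17.8 FPKM in bone marrow, while the distal-start pair overlaps between all tissues.

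The bases just before both Sphk2 starts are shown because the level of only 1 of them differed without overlap. They are chr7:45715208-45715456 for the proximal and chr7:45718003-45718070 for the distal start, both shortened where an annotated transcript of the oppositely oriented Rpl18 begins, from RefSeq (GRCm38.p6), minus strand, 5′ to 3′, with motif matches in capitals.
Sphk2 proximal: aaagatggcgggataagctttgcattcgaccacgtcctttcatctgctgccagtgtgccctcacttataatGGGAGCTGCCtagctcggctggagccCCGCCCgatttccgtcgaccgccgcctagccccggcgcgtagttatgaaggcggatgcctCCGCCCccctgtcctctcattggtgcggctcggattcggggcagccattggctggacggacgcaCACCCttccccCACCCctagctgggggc
Sphk2 distal: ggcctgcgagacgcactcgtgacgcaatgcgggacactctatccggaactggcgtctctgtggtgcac
The proximal window of 249 bases is 63.9% G and C with 20 CG dinucleotides. It holds 2 GC boxes (GGGCGG, printed as its reverse complement CCGCCC) at -152 and -92, 2 KLF-type matches at -28 and -17 and 1 NF-kB match at -178. The distal stretch of 68 bases is 63.2% G and C with 7 CG dinucleotides and holds none of the motifs searched, in a window too short to set against the shares of the 250-base windows.

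Sgpl1 (Entrez 20397; mm10 chr10:61098642-61147684, minus strand), the lyase of the endoplasmic reticulum, had 204, 206 and 340 CPM in lung, 165, 146 and 183 CPM in blood and 192, 188 and 229 CPM in bone marrow. Lung was above blood in every library, lung and bone marrow overlapped, and blood was below bone marrow. The means were 249.8 ± 78.0 CPM in lung, 165 ± 18.4 CPM in blood and 203 ± 22.7 CPM in bone marrow (SD, n = 3 each). The log2 fold change was 0.60 (SE 0.22) for lung over blood, 0.30 (SE 0.22) for lung over bone marrow and -0.30 (SE 0.22) for blood over bone marrow, a sign that turned to 0.06 in FPKM, where the median of all genes moved by 0.30. Lung replicate 3 carried much of the lung mean: without it the value against blood was 0.28 and that against bone marrow -0.03. Within each library, per length, Sgpl1 was ahead of Sphk2 by a ratio of 2.43, 2.32 and 3.05 in lung, 1.44, 1.53 and 1.68 in blood and 1.23, 1.22 and 1.44 in bone marrow. Every lung library had a higher ratio of lyase to kinase transcripts than any library of the other tissues.

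Around these genes, 71 others of sphingolipid metabolism, S1P transport and receptor signalling were followed, of which 63 were tested. Between lung and blood 5 rose and 12 fell in lung (27.0%), where 28.9% of all genes passed, 13.2% higher and 15.7% lower. Between lung and bone marrow 12 rose and 25 fell in lung (58.7%), against 38.2% of all genes, 15.6% higher and 22.6% lower, and the median log2 fold change was -0.42 over the list and 0.06 over all genes. Between blood and bone marrow 5 rose and 12 fell in blood (27.0%), against 21.4% of all genes, 8.34% higher and 13.1% lower. The list medians were -0.12 in lung over blood and -0.15 in blood over bone marrow, beside 0.05 and -0.05 over all genes. The calls were made with edgeR's quasi-likelihood test at an adjusted p under 0.05 over all genes, and the comparisons share libraries.

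The split of calls depended on the scaling and the counts on single libraries. Of all genes called, 45.6%, 40.9% and 39.0% were higher in the first tissue of lung against blood, lung against bone marrow and blood against bone marrow. With upper-quartile scaling these shares were 55.9%, 59.3% and 52.6%, with relative log expression size factors 56.9%, 52.0% and 43.1%, and with limma on FPKM 34.7%, 50.9% and 67.1%. For the 63 pathway genes, the 5 higher in lung than blood became 2 without lung replicate 1, lung replicate 2, blood replicate 1 or blood replicate 2, 1 without blood replicate 3, 3 without bone marrow replicate 1 or 2, and 9 without lung replicate 3, which also raised the 12 lower genes to 22. The 12 higher in lung than bone marrow became 7 without lung replicate 1 and 6 without lung replicate 2 or bone marrow replicate 1 or 2. The 25 lower in lung became 15 without blood replicate 1 and 16 without blood replicate 2 or 3. In blood against bone marrow the 12 lower became 6 without blood replicate 1 or 3, and 5 without blood replicate 2 or bone marrow replicate 2 or 3. There the 5 higher became 3 without bone marrow replicate 2.

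**Figure D5:**
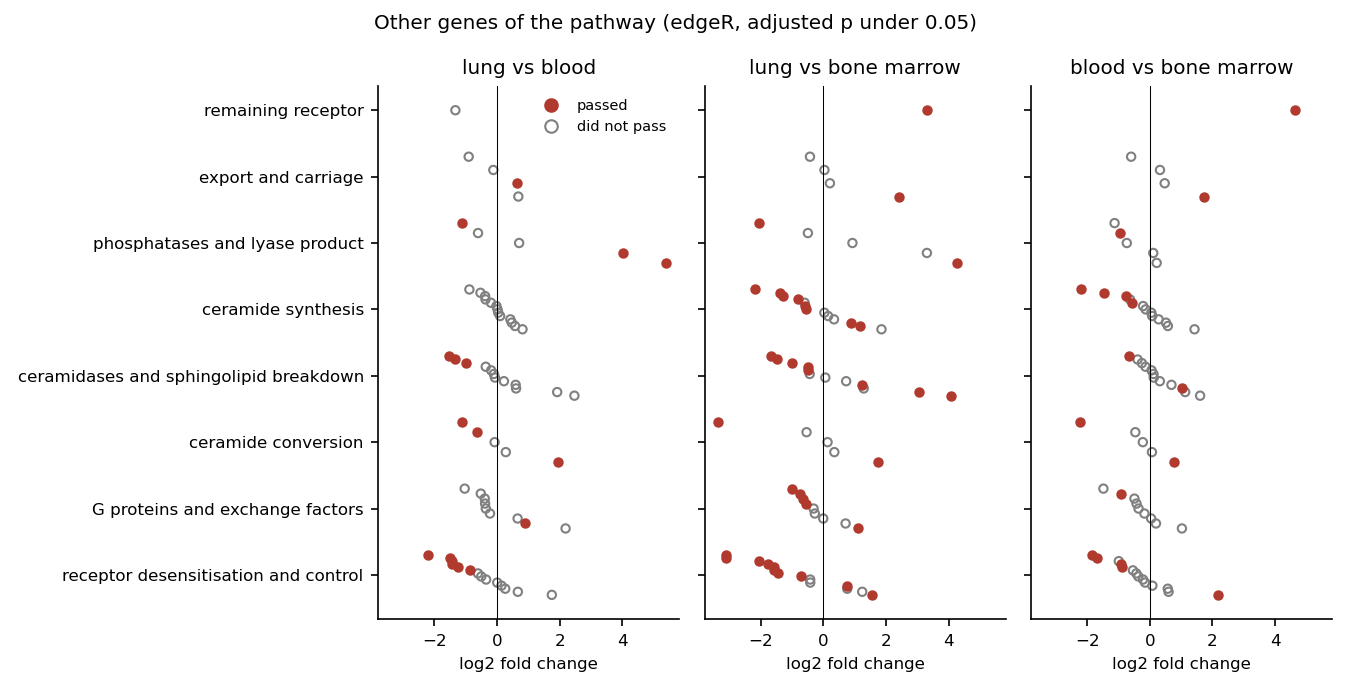
Log2 fold change (horizontal axis) of the 63 tested pathway genes in lung against blood, lung against bone marrow and blood against bone marrow, grouped by role down the page. Filled points passed at an edgeR adjusted p under 0.05, open points did not; in lung against bone marrow, receptor desensitisation and control holds 8 lower and 2 higher genes of 14.

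Genes that restrain receptors or control their number, a list of 14, held 6 genes lower in lung than in blood, 8 lower and 2 higher in lung than in bone marrow, and 4 lower and 1 higher in blood than in bone marrow. These are 42.9%, 71.4% and 35.7% of the list, where 28.9%, 38.2% and 21.4% of all genes were called. Klf2, a transcription factor that drives S1pr1 in lymphocytes, had 391, 320 and 280 CPM in lung, 1105, 1405 and 2028 CPM in blood and 2863, 2693 and 2992 CPM in bone marrow. No library overlapped between tissues. It fell in lung against blood by 2.20 on the log2 scale (SE 0.27, edgeR adjusted p = 0.000801) and against bone marrow by 3.11 (SE 0.28, adjusted p = 6.94e-05). For blood against bone marrow the value was -0.91 (adjusted p = 0.0349), a call lost without lung replicate 2 (0.0579), blood replicate 1 (0.248), blood replicate 2 (0.240), or any bone marrow replicate (0.0892, 0.0894 and 0.109). Its adjusted p was 0.0537 with upper-quartile scaling, 0.0633 with size factors, 0.120 with no count filter, 0.0720 with halved counts and 0.160 on FPKM.

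Cd69, whose protein binds S1pr1 and removes it from the surface of lymphocytes, had 32.8, 31.8 and 28.1 CPM in lung, 31.2, 20.8 and 25.4 CPM in blood and 109, 79.0 and 90.0 CPM in bone marrow. It fell against bone marrow, at a log2 fold change of -1.58 in lung (SE 0.18, edgeR adjusted p = 0.000232) and -1.84 in blood (SE 0.18, adjusted p = 0.000216), and lung and blood overlapped. Of 5 regulators of G protein signalling, which shorten the signal of G protein-coupled receptors, Rgs2, Rgs14, Rgs18 and Rgs19 fell in lung against both other tissues, and Rgs18 alone was called in blood against bone marrow. Without blood replicate 3, Rgs2 was at adjusted p = 0.0502 in lung against blood, and with a replicate block Rgs19 passed in blood against bone marrow (0.0293). Rgs18 had 6.36, 8.43 and 12.0 CPM in lung, 21.1, 23.0 and 28.9 CPM in blood and 64.4, 77.8 and 90.5 CPM in bone marrow. Its log2 fold change was -1.45 in lung against blood (edgeR adjusted p = 0.00326), -3.12 in lung against bone marrow (adjusted p = 5.02e-05) and -1.67 in blood against bone marrow (adjusted p = 0.00181). Rgs19 averaged 49.6 ± 10.9 CPM in lung and 142 ± 25.0 CPM in blood (SD, n = 3 each), a log2 fold change of -1.51 (SE 0.25, adjusted p = 0.00310). Rgs1, described after its values were seen, did not follow them, with 87.9, 69.9 and 47.6 CPM in lung, 47.4, 9.65 and 4.08 CPM in blood and 53.3, 33.7 and 34.2 CPM in bone marrow. Its log2 fold change was 1.75 in lung against blood (edgeR adjusted p = 0.116), 0.76 in lung against bone marrow (adjusted p = 0.436) and -0.99 in blood against bone marrow (adjusted p = 0.389). In lung against blood it passed without blood replicate 1 (0.00310), with a replicate block (0.0323), with limma-voom (0.0359), with limma on FPKM (0.0484) and with DESeq2 (0.0255), and in blood against bone marrow without blood replicate 1 (-2.48, 0.00804).

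Grk3, a kinase that marks active receptors for arrestin, averaged 15.8 ± 6.56 CPM in lung, 24.2 ± 12.9 CPM in blood and 5.37 ± 0.397 CPM in bone marrow (SD, n = 3 each). It rose against bone marrow in lung (1.56, edgeR adjusted p = 0.0281) and in blood (2.17, adjusted p = 0.0123). The first call was lost without lung replicate 1 (0.0772), lung replicate 2 (0.0921) or bone marrow replicate 1, 2 or 3 (0.0783, 0.0955 and 0.0702), and the second without bone marrow replicate 2 (0.0546). With limma-voom they were at adjusted p = 0.115 and 0.0614, and with limma on FPKM the first was at 0.0673.

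Among G proteins and the exchange factors that act with them, 9 tested, 1 rose in lung against blood, 1 rose and 4 fell in lung against bone marrow, and 1 fell in blood against bone marrow. These are 11.1%, 55.6% and 11.1% of the list, against 28.9%, 38.2% and 21.4% of all genes. Gna13, a G protein alpha subunit, had 258, 285 and 440 CPM in lung, 186, 151 and 192 CPM in blood and 160, 144 and 156 CPM in bone marrow. It rose in lung by a log2 fold change of 0.89 against blood (SE 0.22, edgeR adjusted p = 0.0148) and of 1.09 against bone marrow (SE 0.22, adjusted p = 0.00442). The call against blood was lost without blood replicate 1 (0.102), 2 (0.135) or 3 (0.0848). Gnai2, the main Gi subunit of white blood cells, had 773, 885 and 1067 CPM in lung, 1260, 1115 and 1530 CPM in blood and 1756, 1675 and 2046 CPM in bone marrow. It was lower in lung than in bone marrow at a log2 fold change of -1.01 (SE 0.22, adjusted p = 0.00637, and 0.0518 without blood replicate 1). For lung against blood the value was -0.52 (adjusted p = 0.102), which passed with a replicate block (0.0254), without lung replicate 3 (0.0303) and with limma on FPKM (0.00216). For blood against bone marrow it was -0.49 (adjusted p = 0.141), which passed with a replicate block (0.0340).

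Among genes of S1P export and carriage, 4 tested, 1 was called in each comparison, always higher in the first tissue (25.0%, against 28.9%, 38.2% and 21.4% of all genes). Spns2, the exporter of endothelium, had 1.96 to 5.94 CPM in lung, 1.38 to 6.21 CPM in blood and 3.43 to 3.77 CPM in bone marrow, and Mfsd2b, the exporter of red cells and platelets, had 1.33 to 2.26, 1.90 to 4.26 and 0.716 to 3.08 CPM. Neither passed in any comparison. The phosphatase Sgpp1 averaged 8.38 ± 2.15 CPM in lung, 12.8 ± 2.43 CPM in blood and 11.8 ± 0.594 CPM in bone marrow (SD, n = 3 each) and did not pass either, except for lung against blood without blood replicate 1 (edgeR adjusted p = 0.0305). Abca1, a lipid transporter that has been linked to S1P release, had 52.7, 36.8 and 34.4 CPM in lung, 27.4, 32.0 and 18.1 CPM in blood and 9.39, 7.53 and 6.09 CPM in bone marrow. It rose against bone marrow in lung (2.43, SE 0.27, adjusted p = 0.000209) and in blood (1.75, SE 0.27, adjusted p = 0.00218).

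Abcc1, another such transporter, was higher in lung than in blood by a log2 fold change of 0.63 (edgeR adjusted p = 0.0369). That call was lost without lung replicate 1 (0.132) or 2 (0.0775), blood replicate 1 (0.0972) or 3 (0.102) and bone marrow replicate 1, 2 or 3 (0.0593, 0.0649 and 0.0569), with the 6 libraries of both tissues alone (0.0938), with limma on FPKM (0.324) and with RSEM expected counts (0.0675).

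The list of phosphatases and of the enzyme that takes up the lyase product, 5 tested, held 2 genes higher and 1 lower in lung than in blood (60.0%), 1 higher and 1 lower in lung than in bone marrow (40.0%) and 1 lower in blood than in bone marrow (20.0%), against 28.9%, 38.2% and 21.4% of all genes. Plpp3, a surface phosphatase of lipid phosphates, had 36.3, 23.4 and 2.58 CPM in lung, 0.589, 0.747 and 0.136 CPM in blood and 0.381, 0.0588 and 2.84 CPM in bone marrow. Plpp3 was higher in lung than in blood by 5.39 on the log2 scale (SE 1.44, edgeR adjusted p = 0.0223) and than in bone marrow by 4.26 (SE 1.36, adjusted p = 0.0359). Without lung replicate 1 or 2 these were 0.0637 and 0.0512 against blood and 0.103 and 0.0780 against bone marrow. Without blood replicates 1, 2 and 3 the p against blood was 0.0695, 0.0633 and 0.0771, and against bone marrow it was 0.0515 without blood replicate 1 and 0.110 and 0.0828 when bone marrow replicate 1 or 2 was left out. With a replicate block these were 0.0617 and 0.151 and with limma-voom 0.203 and 0.174, and the call against bone marrow was also lost without a count filter (0.0563) and with the 6 libraries of both tissues alone (0.0561). Plpp3 was high in the lung libraries, replicates 1 and 2, that had the most fibroblast markers. In bone marrow it was highest in replicate 3, which had the most fibroblast markers there. The part of fibroblasts in the Plpp3 values was not tested.

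The other genes called in that list are described after their values were seen. Plpp1, a related phosphatase, had 5.70, 3.47 and 0.720 CPM in lung, 0.327, 0.156 and 0.113 CPM in blood and 0.477, 0.510 and 0 CPM in bone marrow, so it too was lowest of the lung libraries in replicate 3. It was higher in lung than in blood by 4.04 on the log2 scale (SE 1.23, edgeR adjusted p = 0.0370), a call lost without lung replicate 1 or 2, any blood replicate or bone marrow replicate 1 or 2 (adjusted p 0.0538 to 0.122) and with limma-voom (0.101). Against bone marrow the value was 3.31 (adjusted p = 0.0539), which passed with upper-quartile scaling (0.0480), size factors (0.0463), a replicate block (0.0120), halved counts (0.0320), limma on FPKM (0.0313) and DESeq2 (0.00556), and without lung replicate 3 (0.0207). Aldh3a2, the fatty aldehyde dehydrogenase that oxidises the aldehyde released by the lyase, had 25.2, 31.3 and 44.0 CPM in lung, 70.3, 62.9 and 85.5 CPM in blood and 126, 143 and 151 CPM in bone marrow, without overlap between tissues. It fell in lung by 1.12 on the log2 scale against blood (SE 0.21, adjusted p = 0.00551) and by 2.06 against bone marrow (SE 0.22, adjusted p = 0.000165), and in blood against bone marrow by 0.94 (SE 0.21, adjusted p = 0.0142). The first call was lost without blood replicate 3 (0.0709). The third was lost without blood replicate 1, 2 or 3 (0.172, 0.206 and 0.0755), without bone marrow replicate 2 or 3 (0.0563 and 0.0602), without a count filter (0.0712) and with halved counts (0.0519).

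In ceramide synthesis, 13 tested genes gave 0 calls in lung against blood with edgeR, where 3 had an unadjusted p under 0.05. With DESeq2 2 passed, with limma on FPKM 3 and with limma-voom 0 (4 unadjusted). Against bone marrow 2 rose and 6 fell in lung (61.5%, against 38.2% of all genes), and 4 fell in blood (30.8%, against 21.4%). Degs1, the desaturase that completes ceramide, had 66.7, 76.1 and 114 CPM in lung, 92.7, 72.5 and 88.8 CPM in blood and 314, 398 and 462 CPM in bone marrow. It fell against bone marrow, at a log2 fold change of -2.19 (SE 0.24, edgeR adjusted p = 0.000206) in lung and -2.21 (SE 0.24, adjusted p = 0.000405) in blood, and lung and blood overlapped.

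In ceramide conversion, Sgms2, a sphingomyelin synthase, had 643, 595 and 1072 CPM in lung, 188, 156 and 254 CPM in blood and 272, 195 and 229 CPM in bone marrow. It rose in lung by 1.95 (SE 0.29, edgeR adjusted p = 0.00189) against blood and by 1.73 (SE 0.29, adjusted p = 0.00169) against bone marrow. Like S1pr2 and Gna13 it was highest in lung replicate 3. Cptp, which carries ceramide 1-phosphate between membranes, ran as S1pr4 did, with 1.62, 2.03 and 1.69 CPM in lung, 3.77, 3.77 and 4.05 CPM in blood and 16.4, 14.9 and 23.5 CPM in bone marrow. It was lower in lung than in bone marrow at a log2 fold change of -3.36 (SE 0.24, adjusted p = 2.82e-05) and in blood than in bone marrow at -2.24 (SE 0.22, adjusted p = 0.000236). Cerk, the ceramide kinase, was higher in blood than in bone marrow by 0.76 (adjusted p = 0.0162), a call lost without bone marrow replicate 2 (0.0700) or 3 (0.0713).

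Ceramidases and enzymes of sphingolipid breakdown, 12 tested, held 3 genes lower in lung than in blood, 5 lower and 3 higher in lung than in bone marrow, and 1 lower and 1 higher in blood than in bone marrow. These are 25.0%, 66.7% and 16.7% of the list, against 28.9%, 38.2% and 21.4% of all genes. Gba2, a glucosylceramidase outside the lysosome, had 16.6, 20.5 and 19.4 CPM in lung, 46.3, 52.6 and 66.1 CPM in blood and 46.3, 56.3 and 55.9 CPM in bone marrow. It fell in lung against blood by 1.55 (SE 0.17, edgeR adjusted p = 0.000499). Acer3, an alkaline ceramidase that frees sphingosine, rose in blood against bone marrow by 1.03 (SE 0.20, adjusted p = 0.00808, and 0.0519 without blood replicate 1).

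For each member the genes most alike in pattern were sought among 7729 genes of at least 5 CPM, by Pearson's r of log2 CPM over the 9 libraries, as a description. These libraries share tissue and library make-up, so r mixes both. S1pr2 was most like Rela (r = 0.992), Ptafr (0.992) and Birc3 (0.990). Ptafr, the receptor for platelet-activating factor, had 1277, 1627 and 2610 CPM in lung, 652, 324 and 547 CPM in blood and 368, 301 and 417 CPM in bone marrow, which puts lung replicate 3 on top as for S1pr2. S1pr4 was most like Fam117a (0.995), Polr3c (0.994) and Slc30a1 (0.993), and Sphk2 like Slc2a3 (0.996), Nub1 (0.993) and Slc10a3 (0.992). Slc2a3, a glucose transporter, had 663, 720 and 1155 CPM in lung, 1386, 892 and 1193 CPM in blood and 2503, 2817 and 2684 CPM in bone marrow. S1pr1 was most like Eif3m (0.988), Prpf31 (0.986) and Faah (0.986), S1pr3 like Slc43a3 (0.983), Cish (0.979) and Calu (0.975), and Sgpl1 like Rnf11 (0.983), Eif2s3y (0.976) and Cyp4f18 (0.971). The closest to Sphk1, with its few reads, was Cdc27 (0.944), followed by Slc43a3 (0.934) and Glrx5 (0.930).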

How the data were processed

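Polyadenylated RNA of sorted mouse neutrophils was sequenced in 9 libraries. Per the labels, TruSeq mRNA kits were used, named both as standard and as stranded. The submitters' processing notes name Bowtie2, STAR, RSEM, DESeq2, StringTie 2.1.3b and the build mm10, without their roles. A table of the whole series lists, per the file headers, read counts and FPKM of 36780 RefSeq transcripts. These deposited counts are whole and not normalized. The deposited bone marrow files repeat it in all 36780 transcripts. The blood and lung files give TPM and RSEM expected counts of 55450 GENCODE genes, per the file headers. The series counts were about 2.00 to 2.02 times these, so counting errors may be understated. The series table was used because it alone covers every tissue in 1 annotation. Replicates are numbered as in the titles, 1 below the numbers in that table's columns. Each blood and lung column correlated best with its own sample file.

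Counts were summed by Entrez gene, and genes were kept by edgeR's filterByExpr, leaving 13510. All 9 libraries were TMM-scaled and entered 1 edgeR 4.0.16 fit (quasi-likelihood with robust estimation, group means, common biological coefficient of variation 0.448). Tests were two-sided with Benjamini-Hochberg adjustment over all genes at 0.05, and the code was tested on simulated data. SE is the log2 fold change over the square root of F. A count of 0 allows 3 reads, and such limits cover counting error only. Alternatives used limma 3.58.1, DESeq2 1.42.0, other scalings, no filter, log2(FPKM + 0.1), RSEM values, a replicate block and leaving out each library, and, chosen after seeing the data, halved counts. Scripts ran in Python 3.11.15 (matplotlib 3.10.9, pandas 2.3.3, numpy 2.4.6) and R 4.3.3. RefSeq upstream windows (GRCm38.p6) were found for 6 of the 7 members, and none was used for S1pr1.

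The members and lists were chosen with earlier results of these data known, so no p is given for a member and no p adjusted over a list. Genes named beside them are S1pr5, Spns2, Mfsd2b, Sgpp1, Cd69, Klf2, Gnai2 and, per comparison, the 4 largest rises and falls passing with a mean of at least 5 CPM in the higher tissue. The 3 genes most like each member were taken by Pearson's r of log2(CPM + 0.5). Ptafr, Slc2a3, Cd3e, Rpl18, Dbp, Plpp1, Aldh3a2, Rgs1, Rgs2, Rgs14, Csf3r, Csf1r, Adgre1, Cd3d, Cd3g, Il7r, Ncr1, Fcer2a, Ace, Cx3cr1, Sftpc and Pecam1 values were given after their values were seen. Other single markers that are ranked beside the sum of their list were also picked after their values were seen.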

Additional observations from a re-analysis of the deposited data

How the results depend on the processing

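The direction of S1pr2, S1pr4 and Sphk2 against bone marrow and of S1pr2, S1pr3 and S1pr4 in lung against blood was kept in every alternative run. Upper-quartile scaling moved the median of all genes by 0.16, 0.32 and 0.15 (lung against blood, lung against bone marrow, blood against bone marrow).

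In lung against blood, the S1pr3 value was 4.68 with limma-voom and 2.09 on FPKM. Pathway genes higher in lung numbered 10 with DESeq2 and 3 on RSEM counts, and 20 were lower on FPKM. In lung against bone marrow, Sphk2 was -0.46 with upper-quartile scaling, -0.61 with size factors and -0.51 on FPKM. Pathway genes lower in lung numbered 16 with size factors, without a count filter, with 6 libraries and with halved counts, and 7 were higher with limma-voom.

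In blood against bone marrow, S1pr1 was 0.11 with upper-quartile scaling, 0.0031 without a filter and 0.12 with 6 libraries. S1pr3 was -3.12 with limma-voom and -0.85 on FPKM. S1pr4 was -1.41 with upper-quartile scaling, -1.41 with 6 libraries and -1.20 on FPKM. Sphk2 was -0.42, -0.42 and -0.20 under these, and Sgpl1 0.059 on FPKM. Pathway genes lower in blood numbered 7 with size factors, 5 without a filter and 6 with halved counts, and 8 with 6 libraries, 3 with limma-voom and 13 on FPKM were higher. Of all genes, 1695, 2164 and 2251 were higher in blood with upper-quartile scaling, 6 libraries and FPKM, and 1110 and 1106 were lower without a filter and on FPKM. In RSEM TPM the mean S1pr4 share in lung was 14.9%, the Sgpl1 to Sphk2 ratio in blood 1.73 and the Sphk1 share of kinases in blood 0.112%. The cause of these moves was not tested.

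Leaving out 1 library at a time gave, in lung against blood, 0.28 to 1.55 for S1pr1, 2.62 to 3.51 for S1pr2, 3.45 to 4.53 for S1pr3, -2.24 to -1.68 for S1pr4, -0.36 to -0.11 for Sphk2 and 0.28 to 0.74 for Sgpl1. In lung against bone marrow it gave 0.38 to 1.12, 3.17 to 4.01, 1.30 to 1.86, -3.80 to -3.25, -0.93 to -0.68 and -0.027 to 0.43. In blood against bone marrow it gave -0.86 to 0.41, 0.36 to 0.92, -2.95 to -1.87, -1.64 to -1.40, -0.60 to -0.39 and -0.37 to -0.11. Pathway genes numbered 1 to 9 higher and 9 to 22 lower, 6 to 14 higher and 15 to 30 lower, and 3 to 7 higher and 5 to 15 lower in these comparisons. All genes numbered 956 to 2899 higher and 966 to 2953 lower, 961 to 3339 higher and 2169 to 3645 lower, and 510 to 1589 higher and 645 to 2376 lower.

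Replicate numbers are shared across tissues, and deviations of same-numbered libraries correlated at 0.049 to 0.518 in 9 pairs and those of 18 other pairs at -0.504 to 0.453. All same-numbered pairs were thus positive, while the other pairs had both signs. Blood and bone marrow replicate 1 were lowest at 0.049, and every other same-numbered pair was at 0.127 or more. Something shared by libraries of 1 number is therefore not excluded. The labels name no shared animal, so the main fit did not take the numbers as pairs, and a replicate block was run as an alternative. With a replicate block 9 pathway genes were higher and 18 lower in lung than in blood, and of all genes 2073 were higher and 2678 lower. Of 770 values under alternatives, for the pathway genes named by rule in each comparison, 56 lost and 5 gained a call, and none changed sign past the threshold. These 770 leave out Plpp1, Aldh3a2, Rgs1, Rgs2 and Rgs14, and Rgs19 in blood against bone marrow. Further calls lost and gained among them are given with those genes.

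Depth limits Sphk1 and S1pr3, with at most 52 and 157 reads.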
